A study of Mus musculus with 4 samples.

Results

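The genes described here are the amino acid stress and one-carbon genes of the mouse: the transcription factor Atf4, its regulators and targets, the enzymes of serine, proline and folate metabolism, and amino acid transporters. The 32 members were chosen by symbol, and all 32 were found among the 55401 genes of the deposited table. RNA was sequenced from cultured mouse cells that the labels call female germline stem cells, from ovaries of the C57BL/6 strain, in 2 libraries of cells given daidzein, a soy isoflavone, and 2 libraries of cells given DMSO, its solvent. The labels speak of several concentrations but give none of them, nor the length of the treatment. They also do not say whether the 2 libraries of a group stem from different cultures, and the p-values cover the spread among these 4 libraries, which may be technical. Both groups grew in the same medium, MEM-alpha with serum, non-essential amino acids, L-glutamine, pyruvate and growth factors, and the labels name no amino acid shortage.

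When amino acids run short, uncharged transfer RNA activates the kinase GCN2, the product of Eif2ak4, which phosphorylates the translation factor eIF2. Most translation then falls, while the Atf4 transcript is translated more, and the ATF4 protein switches on genes that import and make amino acids. Serine and glycine also feed the folate cycle, which carries single carbon units for the synthesis of nucleotides and methionine. Because ATF4 is controlled largely at translation, the level of its transcript is not a measure of its protein.

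Library totals were 17192077 and 18537134 reads with daidzein and 16230400 and 17119625 with DMSO. The labelled cell type was not borne out by the markers listed for it. Of 11 germ cell markers, 8 had at most 3 reads over the 4 libraries together, and Ddx4, Dppa3 and Pou5f1 were at or near 0. Their summed level was 0.270 to 1.16 CPM (the read count scaled to the size of the library) with daidzein and 0.350 to 1.11 CPM with DMSO. Of 12 blood and mast cell markers, 6 had over 100 reads in each library (Ptprc, Kit, Cpa3, Gata2, Spi1 and Adgre1), while Fcer1a, Cd3e and Ly6g had 0. The summed level of this list was 3053 to 3093 CPM with daidzein and 3054 to 3139 CPM with DMSO. Of 10 ovarian somatic and stromal markers, 4 had 0 reads, and the list summed to 4.13 to 4.64 CPM with daidzein and 3.76 to 4.38 CPM with DMSO. In such bulk libraries, fewer cells of a type and less RNA per cell cannot be told apart.

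The letters of the C/EBP-ATF element, the DNA sequence through which ATF4 acts, stood close to the start of several members. The promoter windows of RefSeq (build GRCm38.p6, 250 bases before to 50 after each listed start) cover 29 of the 32 members with 37 windows, and Slc1a5, Slc7a3 and Slc7a5 are not in the table. TGATGNAA, searched on both strands (its reverse complement is TTNCATCA), was found in 8 of 29 members (27.6%), against 4.51% of all 27025 genes with a window. The exact core TTGCATCA or TGATGCAA, whose matches all lie within those of the first motif, was found in 6 of 29 members (20.7%), against 1.03% of all genes. Many members were chosen as known ATF4 targets, so this share is a description of the choice and was not tested. The 8 matches are shown with 11 bases on each side, read 5′ to 3′ along the gene's own strand, and capitals mark the motif.
Asns (chr6:7693214-7693243, minus strand): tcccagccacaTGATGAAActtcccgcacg
Chac1 (chr2:119351038-119351067, plus strand): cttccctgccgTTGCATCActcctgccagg
Fgf21 (chr7:45615611-45615640, minus strand): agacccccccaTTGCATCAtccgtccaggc
Nupr1 (chr7:126625562-126625591, minus strand): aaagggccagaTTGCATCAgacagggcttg
Pycr1 (chr11:120643833-120643862, minus strand): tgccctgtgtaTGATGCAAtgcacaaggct
Slc1a4 (chr11:20332699-20332728, minus strand): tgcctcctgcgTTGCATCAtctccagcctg
Trib3 (chr2:152344028-152344057, minus strand): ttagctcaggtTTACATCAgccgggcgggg
Vldlr (chr19:27216809-27216838, plus strand): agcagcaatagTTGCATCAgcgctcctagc

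The Asns match begins 23 bases before the RefSeq start, and its letters are those of the nutrient-sensing element known from the human ASNS promoter. Those of Slc1a4, Pycr1, Nupr1, Fgf21, Chac1 and Vldlr begin 4, 103, 110, 139, 193 and 200 bases before the RefSeq start. The match of Trib3 begins at base 15 counted from the RefSeq start. In the gene positions used for the counts, Trib3 starts further along the minus strand, at 152344032, and the match lies before that start. By the same positions, Asns, Nupr1 and Vldlr start further upstream, at 7693254, 126630861 and 27216484. Their matches thus lie inside the counted gene. The 250 bases before the start are shown for a pair of members with the identical core, Chac1, which was transcribed in these cells, and Fgf21, which had no read.
Chac1 (chr2:119350992-119351241, plus strand): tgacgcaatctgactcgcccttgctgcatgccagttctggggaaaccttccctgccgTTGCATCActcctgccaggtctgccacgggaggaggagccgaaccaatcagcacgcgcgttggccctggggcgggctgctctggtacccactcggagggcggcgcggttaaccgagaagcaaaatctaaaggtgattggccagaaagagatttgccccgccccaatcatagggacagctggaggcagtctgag
Fgf21 (chr7:45615491-45615740, minus strand): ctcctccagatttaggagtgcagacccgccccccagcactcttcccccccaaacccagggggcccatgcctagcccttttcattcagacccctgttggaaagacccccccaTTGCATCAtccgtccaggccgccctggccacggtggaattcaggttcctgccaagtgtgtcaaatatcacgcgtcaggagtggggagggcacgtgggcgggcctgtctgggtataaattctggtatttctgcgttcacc

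Levels are given as FPKM, which divides the read count by exonic length and by library total and allows genes to be set side by side. They use the length of all exons of a gene, so a gene whose main transcript is shorter than that is given too low a level. The members spread from 244 FPKM for Phgdh, above 99.0% of the 19575 genes with a read, to 0 reads for Fgf21 and Vldlr. Of the 32, 27 averaged at least 1 FPKM. Together they took 0.564% and 0.565% of all reads with daidzein and 0.580% and 0.564% with DMSO.

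**Figure D1:**
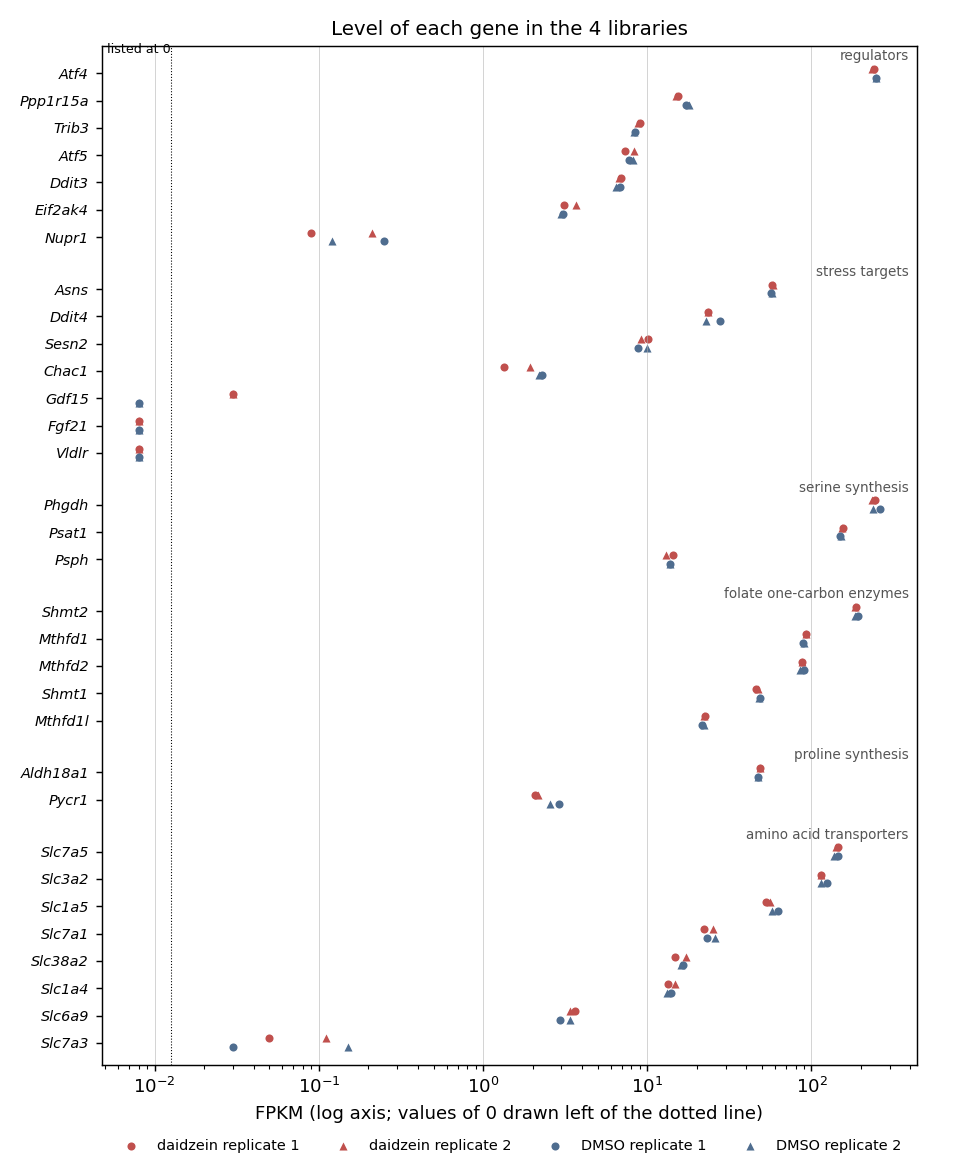
FPKM of each of the 32 genes in each library, on a log axis, with genes grouped by role and ordered by mean level. Points of the daidzein libraries (red) lie just above those of the DMSO libraries (blue), values of 0 stand left of the dotted line, and the spread between genes, from 0 to 244 FPKM on average, is far wider than that between libraries.

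The enzymes that make serine were among the most abundant members. Phgdh, the first enzyme of the pathway, stood at 245 and 235 FPKM with daidzein and at 261 and 237 FPKM with DMSO. Psat1, the aminotransferase of the second step, had 155 and 153 FPKM with daidzein and 150 and 151 FPKM with DMSO. Psph, the phosphatase that releases serine, was lower in every library, at 14.4 and 12.9 FPKM with daidzein and 13.7 and 13.8 FPKM with DMSO. Phgdh was thus 17.1 to 19.1 times and Psat1 10.8 to 11.8 times as high as Psph per length. The Phgdh value is uncertain, since 13 other annotated genes, among them Gm7901 and Phgdh-ps1, share stretches of at least 200 bases with its transcripts at 95.04% to 98.7% identity. Of these, 11 had reads, which together came to 29.7% and 29.0% of the Phgdh reads with daidzein and 27.1% and 28.7% with DMSO. Psph overlaps Cct6a on the opposite strand over 452 bases, and since the strand setting of the counting is not given, reads there cannot be assigned to either gene.

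Of the mitochondrial folate enzymes, Shmt2 and Mthfd2 were high as well. Mthfd1l, at 22.1 FPKM on average, was the lowest of the 5 folate members. Shmt2, the mitochondrial serine hydroxymethyltransferase, had 187 and 183 FPKM with daidzein and 192 and 184 FPKM with DMSO, which is 3.86 to 4.09 times its cytosolic counterpart Shmt1. Shmt1, which overlaps Smcr8 on the opposite strand over 184 bases, had 45.6 and 47.1 FPKM with daidzein and 48.4 and 47.8 FPKM with DMSO. Mthfd2, a mitochondrial dehydrogenase and cyclohydrolase, had 87.8 and 87.9 FPKM with daidzein and 90.0 and 84.7 FPKM with DMSO. It stood level with the cytosolic enzyme Mthfd1, whose range of 89.1 to 92.99 FPKM overlaps its own, and was 3.83 to 4.16 times as high as Mthfd1l, the mitochondrial formate-releasing enzyme. In the synthesis of proline the members were uneven. Aldh18a1, the first enzyme, had 48.6 and 48.5 FPKM with daidzein and 47.3 and 46.9 FPKM with DMSO, against 2.07 and 2.15 FPKM of Pycr1, the mitochondrial final enzyme, with daidzein and 2.91 and 2.55 FPKM with DMSO.

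Of the transporters, both chains of the large neutral amino acid exchanger led. The transport chain Slc7a5 had 144 and 142 FPKM with daidzein and 145 and 136 FPKM with DMSO, and the heavy chain Slc3a2 had 115 and 114 FPKM with daidzein and 124 and 114 FPKM with DMSO. The glutamine carrier Slc1a5 averaged 54.5 ± 2.44 FPKM with daidzein and 59.9 ± 3.43 FPKM with DMSO (SD, n = 2 each). The cationic amino acid carrier Slc7a1, the glutamine carrier Slc38a2 and the alanine and serine carrier Slc1a4 had means over all libraries of 24.2, 16.1 and 13.8 FPKM. The glycine carrier Slc6a9 averaged 3.34 FPKM. Slc7a3, another cationic amino acid carrier, had 3 and 8 reads with daidzein and 2 and 10 with DMSO, too few to be tested.

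Atf4 was the most abundant regulator by far, at 240 and 234 FPKM with daidzein and 247 and 246 FPKM with DMSO. Its transcript stood 34.6 to 38.0 times as high as Ddit3, the gene of the stress factor CHOP, and 28.2 to 33.0 times as high as Atf5, a related factor. Ddit3 had 6.93 and 6.68 FPKM with daidzein and 6.83 and 6.48 FPKM with DMSO. A second table row with the symbol Ddit3 overlaps it on the same strand and had 0 reads, and reads that fall on both rows may have been left out, so the level of Ddit3 may be too low. It also overlaps Mars1 on the opposite strand over 68 bases. The pseudokinase Trib3, which restrains ATF4, averaged 8.65 FPKM over the 4 libraries, and Ppp1r15a, which returns eIF2 to its unphosphorylated form, 16.4 FPKM. The kinase gene Eif2ak4 averaged 3.21 FPKM, below the other eIF2 kinase genes Eif2ak1 at 16.8, Eif2ak2 at 5.30 and Eif2ak3 at 4.07 FPKM, which were singled out after their values were seen. Atf5 overlaps Nup62 on the opposite strand over 571 bases, where reads cannot be assigned without the strand setting. The stress factor gene Nupr1 had 4 and 10 reads with daidzein and 10 and 5 with DMSO.

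Targets of the stress response ran from 0 to 57.3 FPKM. Asns, which makes asparagine, averaged 57.3 FPKM over the 4 libraries, Ddit4, an inhibitor of mTOR signalling, 24.4 FPKM and Sesn2, an inhibitor of the same route, 9.50 FPKM. Chac1, which breaks down glutathione, had 1.35 and 1.94 FPKM with daidzein and 2.30 and 2.18 FPKM with DMSO, so that Asns was 24.6 to 42.5 times as high. The gene of the stress hormone GDF15 had 1 read in each daidzein library and 0 in each DMSO library, and no fold is given since all are under the floor of 3 counts. Fgf21, the gene of another stress hormone, and Vldlr, a lipoprotein receptor gene, had 0 reads in all libraries. A count of 0 in 69079236 reads allows up to 0.0434 CPM, counting error only. Members whose window held the C/EBP-ATF letters had a median level of 2.18 FPKM (8 members, 0 to 57.3). Members without the letters in the window had one of 24.2 FPKM (21 members, 0.0150 to 244). The letters were sought only in these windows, and a match is not a bound site, so neither group shows where ATF4 acts.

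**Figure D2:**
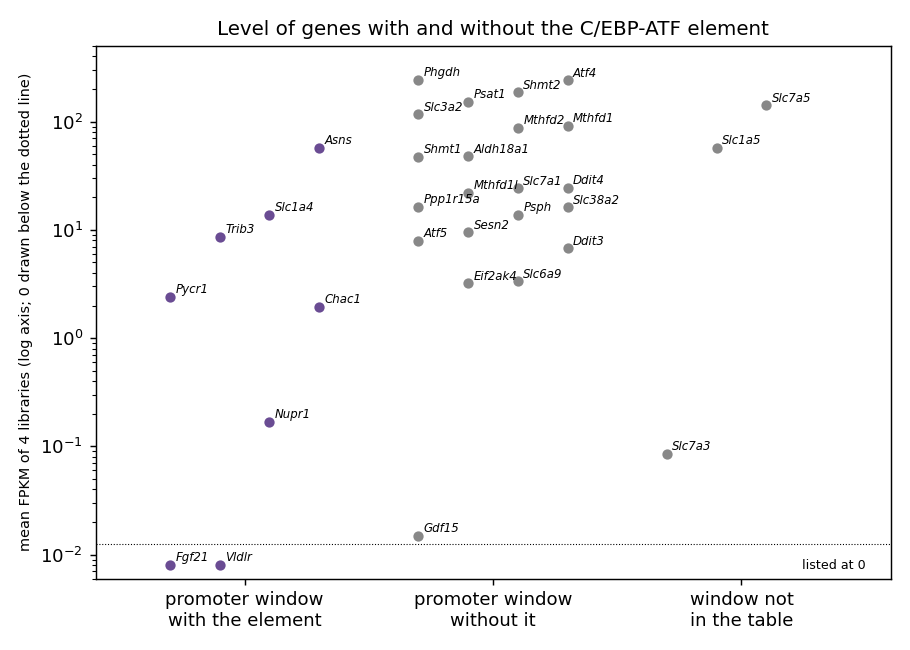
Mean FPKM over the 4 libraries (log axis) of members whose RefSeq promoter window holds the C/EBP-ATF letters, of members whose window does not, and of 3 members without a window in the table. The 8 members with the letters run from 0 reads (Fgf21, Vldlr) to 57.3 FPKM (Asns), and the 4 most abundant members with a window lie in the middle group.

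In the order of levels, several neighbours above 1 FPKM had ranges over the 4 libraries that overlapped. These were Phgdh and Atf4, Mthfd1 and Mthfd2, Asns and Slc1a5, Aldh18a1 and Shmt1, Ddit4 and Slc7a1, and Slc7a1 and Mthfd1l. Further pairs were Ppp1r15a and Slc38a2, Slc1a4 and Psph, Sesn2 and Trib3, Slc6a9 and Eif2ak4, and Pycr1 and Chac1. Within each library, however, Sesn2 was above Trib3 and Pycr1 above Chac1, while the other pairs changed order between libraries. Shmt2, Psat1, Slc7a5 and Slc3a2 each stood apart from both neighbours, as did Atf5 and Ddit3.

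None of the 27 tested members was called as higher or lower with daidzein at an adjusted p under 0.05. Genes were compared by edgeR's quasi-likelihood test on the deposited counts, with p adjusted by Benjamini-Hochberg over all 11700 genes with enough reads, and 27 of the 32 members were among these. Over all genes 0 rose and 2 fell (0.0171%), and of the members 0 rose and 0 fell, each with an adjusted p of 1.00. By DESeq2, too, 0 members passed. At an unadjusted p under 0.05 there were 3 members by edgeR (11.1% of 27, against 2.91% of all tested genes) and 0 by DESeq2. Without DMSO replicate 1 the edgeR number was 1. Estimates lay above 0 for 13 members and below 0 for 14, with a median log2 difference of -0.01, against -0.0027 over all tested genes. The 95% interval of the fold lay wholly between 0.8 and 1.25 for 21 members (77.8%), against 59.8% of all tested genes. For these 21, a change beyond those bounds lies outside the interval. The other 6 tested members were Ppp1r15a, Pycr1, Chac1, Eif2ak4, Slc6a9 and Trib3, whose intervals reached further.

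**Figure D3:**
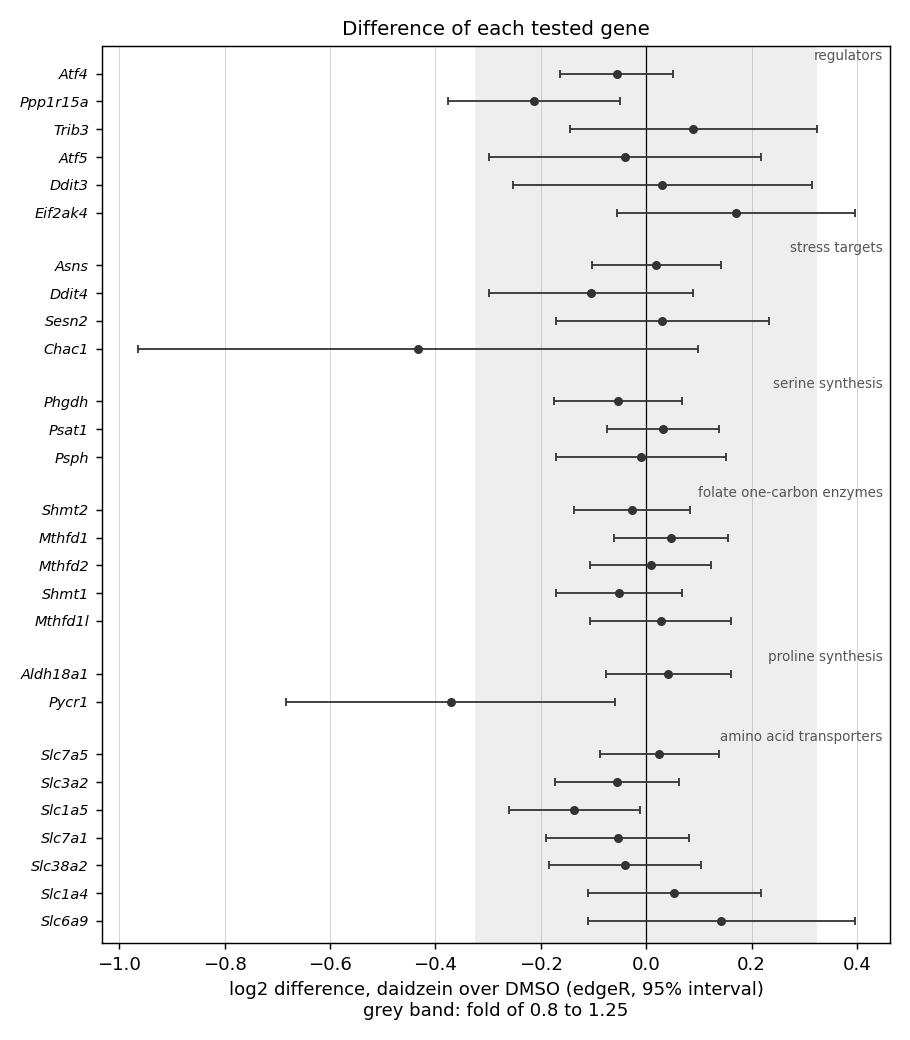
Log2 difference of daidzein over DMSO for the 27 tested members, with 95% intervals from edgeR, grouped by role. The grey band marks folds of 0.8 to 1.25, which hold the whole interval of 21 members, and the intervals of Ppp1r15a, Pycr1 and Slc1a5 lie below 0.

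In CPM scaled by the TMM factors of edgeR, both daidzein libraries lay above both DMSO libraries for 7 of the 27 tested members (25.9%, against 14.7% of all tested genes) and below them for 6 (22.2%, against 15.0%). The 7 were Mthfd1, Mthfd1l, Aldh18a1, Eif2ak4, Trib3, Psat1 and Asns, and the 6 were Ppp1r15a, Pycr1, Slc1a5, Chac1, Atf4 and Shmt1. The lowest p belonged to Ppp1r15a (ENSMUSG00000040435; GRCm38 chromosome 7, 45522916 to 45526268, minus strand). It had 778 and 818 reads with daidzein and 821 and 907 with DMSO, which is 44.7 ± 1.14 CPM with daidzein and 51.8 ± 1.42 CPM with DMSO (SD, n = 2 each). Both daidzein values are below both DMSO values, with a fold of 0.863 (95% interval 0.770 to 0.966), an unadjusted edgeR p of 0.0136 and an adjusted p of 1.00. Pycr1 (ENSMUSG00000025140; chromosome 11, 120635712 to 120643769, minus strand) had 140 and 157 reads with daidzein and 186 and 172 with DMSO. The groups do not overlap, and the fold was 0.773 (0.623 to 0.960). The unadjusted p of edgeR was 0.0224 and the adjusted p 1.00. Slc1a5 (ENSMUSG00000001918; chromosome 7, 16781340 to 16798274, plus strand) had 3788 and 4351 reads with daidzein and 4224 and 4109 with DMSO. Its CPM values of 222 and 233 with daidzein are below 261 and 239 with DMSO, with a fold of 0.910 (0.835 to 0.991). The unadjusted p of edgeR was 0.0328 and the adjusted p 1.00. The log2 difference of Slc1a5, -0.14, was -0.071 without DMSO replicate 1, the library with its highest level.

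Chac1 (ENSMUSG00000027313; chromosome 2, 119351229 to 119354381, plus strand) had few reads, 38 and 59 with daidzein and 61 and 61 with DMSO, and a fold of 0.740 (0.512 to 1.07). In CPM both daidzein libraries were below both DMSO libraries, and its log2 difference, -0.43, was -0.21 without daidzein replicate 1. Eif2ak4 had 398 and 510 reads with daidzein and 372 and 379 with DMSO, a fold of 1.13 (0.963 to 1.32), and its log2 difference of 0.17 was 0.05 without daidzein replicate 2. Slc6a9 had 320 and 322 reads with daidzein and 245 and 299 with DMSO, with overlapping groups and a fold of 1.10 (0.926 to 1.32). Its log2 difference of 0.14 was 0.048 without DMSO replicate 1. Ddit4 had 705 and 766 reads with daidzein and 786 and 688 with DMSO, a fold of 0.930 (0.813 to 1.06), and its log2 difference of -0.11 was 0.04 without DMSO replicate 1. For these 4 genes a single library sets much of the estimate. The unadjusted edgeR p was 0.104 for Chac1, 0.129 for Eif2ak4, 0.253 for Slc6a9 and 0.269 for Ddit4, and every adjusted p was 1.00.

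Of the central genes of the response, Atf4 and Asns had narrow intervals, and Ddit3 and Trib3, with fewer reads, wider ones. Atf4 (ENSMUSG00000042406; chromosome 15, 80255184 to 80257541, plus strand) had 9719 and 10235 reads with daidzein and 9438 and 9934 with DMSO, a fold of 0.962 (0.893 to 1.04). Asns (ENSMUSG00000029752; chromosome 6, 7675169 to 7693254, minus strand) had 2695 and 2943 reads with daidzein and 2514 and 2678 with DMSO, a fold of 1.01 (0.931 to 1.10). In CPM its 4 libraries were nearly equal, at 158 ± 0.214 with daidzein and 156 ± 0.268 with DMSO (SD, n = 2 each). Ddit3 had 204 and 212 reads with daidzein and 190 and 190 with DMSO, a fold of 1.02 with a wider interval of 0.839 to 1.24. Trib3 had 330 and 347 reads with daidzein and 291 and 303 with DMSO. Its fold of 1.06 (0.904 to 1.25) came with groups that do not overlap, and the interval spans 1. The unadjusted edgeR p was 0.289 for Atf4, 0.744 for Asns, 0.821 for Ddit3 and 0.434 for Trib3, with adjusted p of 1.00.

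**Figure D4:**
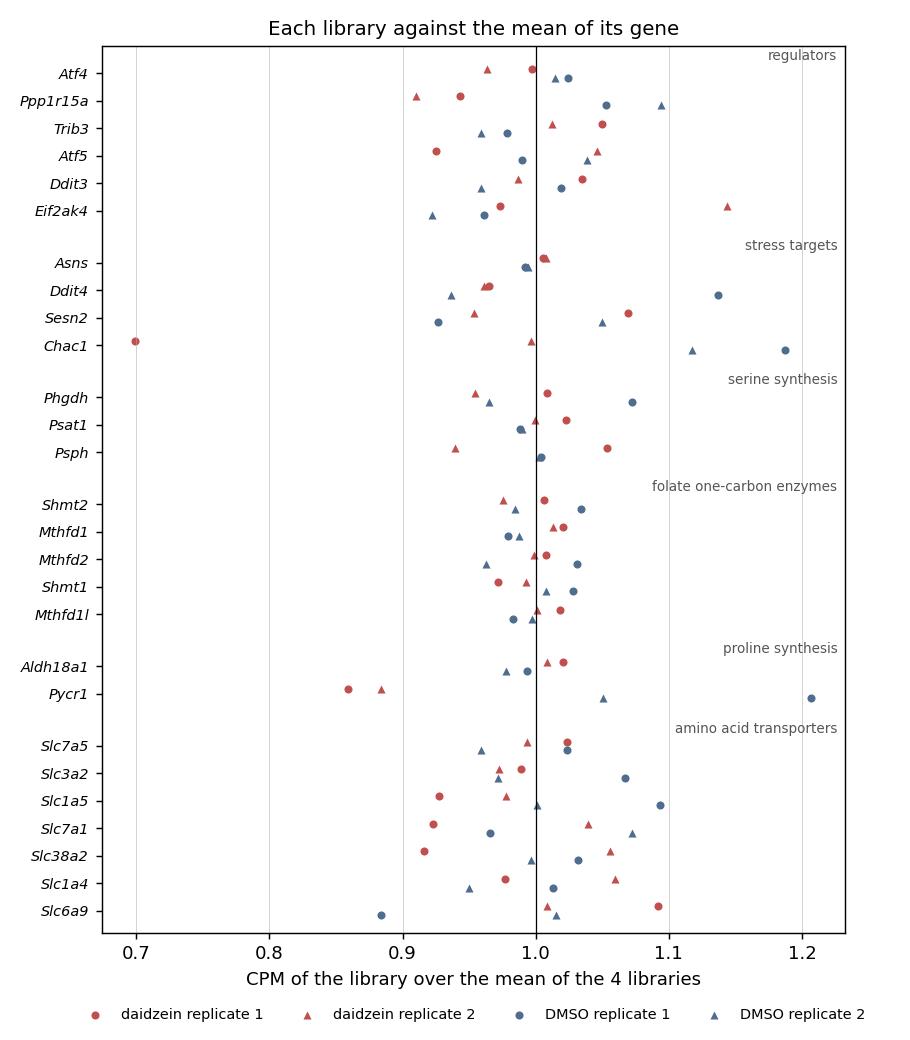
CPM of each library divided by the mean of the 4 libraries, for the 27 tested members grouped by role. Points of Asns, Psat1, Mthfd1 and Aldh18a1 stay close to 1 in every library, while Chac1, with 38 to 61 reads per library, and Pycr1 scatter most widely.

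The metabolic enzymes with the most reads had narrow intervals. Psat1 had 11305 and 12048 reads with daidzein and 10332 and 10993 with DMSO, a fold of 1.02 (0.950 to 1.10). Phgdh had 10481 and 10814 reads with daidzein and 10536 and 10075 with DMSO, a fold of 0.964 (0.886 to 1.05), with the doubt about its copies named above. Shmt2 had 9981 and 10550 reads with daidzein and 9699 and 9817 with DMSO, a fold of 0.982 (0.910 to 1.06). In Mthfd2 the groups overlapped, with 5264 and 5684 reads with daidzein, 5094 and 5053 with DMSO and a fold of 1.01 (0.929 to 1.09). Mthfd1 had 7076 and 7657 reads with daidzein and 6423 and 6884 with DMSO, a fold of 1.03 (0.959 to 1.11), and both daidzein libraries were higher in CPM. All 8 tested enzymes of serine and folate metabolism had intervals within 0.8 to 1.25, against 59.8% of all tested genes. Each of the 8 had at least 962 reads in every library. Among the transporters, Slc7a5 had 9204 and 9738 reads with daidzein and 8703 and 8662 with DMSO, a fold of 1.02 (0.941 to 1.10). Its partner Slc3a2 had 6981 and 7485 reads with daidzein and 7124 and 6891 with DMSO, a fold of 0.962 (0.887 to 1.04). The unadjusted edgeR p of these enzymes and transporters ran from 0.337 for Slc3a2 to 0.873 for Mthfd2, with adjusted p of 1.00. The 9 tested members not given one by one (Atf5, Sesn2, Psph, Shmt1, Mthfd1l, Aldh18a1, Slc7a1, Slc38a2 and Slc1a4) had folds between 0.963 and 1.04.

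Beyond the members, 128 other genes of the same pathways were read off the same fit, in 7 lists, and 109 had enough reads. By edgeR 0 of them rose and 0 fell, and by DESeq2 0 passed. At an unadjusted p under 0.05 there were 2 by edgeR, Cebpb and Slc36a1, and 1 by DESeq2. The 2 by edgeR are 1.83% of 109, against 2.91% of all tested genes. Their median log2 difference was -0.0047. All 20 genes of cytosolic aminoacyl-tRNA synthetases, which load amino acids onto transfer RNA and many of which are known ATF4 targets, were tested. Intervals of all 20 lay within 0.8 to 1.25, against 59.8% of all tested genes. Farsb had the lowest fold, 0.943, and Nars the highest, 1.04, while Qars, second by p, had 0.955. Of 16 genes of the eIF2 kinases, eIF2 and its regulators, 8 had estimates above 0 and 8 below, with a fold of 1.09 (0.995 to 1.203) for Dnajc3, an inhibitor of eIF2 kinases, and 1.14 (0.984 to 1.32) for the adaptor gene Nck1. Of 12 related factors, 9 were tested. Cebpb, a basic leucine zipper factor that can pair with ATF4, had 383 and 315 reads with daidzein and 458 and 485 with DMSO, a fold of 0.693 (0.583 to 0.824). Its unadjusted edgeR p was 0.000289 and its adjusted p 0.628, and the adjusted p was 0.999 by DESeq2 and 0.00757 by edgeR without a filter on low counts. Its log2 difference of -0.53 was -0.74 without daidzein replicate 1 and -0.33 without daidzein replicate 2. The adjusted edgeR p without daidzein replicate 1 was 0.000219, but that fit has 1 daidzein library, which is assumed to vary like the DMSO pair. Cebpb stood at 22.4 and 16.9 CPM with daidzein, which are apart, and at 28.3 and 28.2 CPM with DMSO, which nearly coincide. Over all alternatives the adjusted p ran from 0.000219 to 0.999. Atf2, the second of that list by p, had a fold of 1.08 (0.978 to 1.203).

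Of 28 other folate, methionine and glycine genes, 20 were tested, 9 with estimates above 0 and 11 below. The lowest p were those of Amt, a subunit of the glycine cleavage system with 5 to 11 reads per library and a fold of 0.515 (0.217 to 1.22), and of Mthfs, a folate enzyme with a fold of 1.297 (0.901 to 1.87). Of 17 other amino acid metabolism genes, 15 were tested, led by Asl with a fold of 1.13 (0.994 to 1.29) and Ass1 with 0.929 (0.829 to 1.04), both of arginine synthesis. Among 17 other transporters, 13 were tested. The lysosomal carrier gene Slc36a1 had a fold of 0.810 (0.668 to 0.982) and Slc7a6 one of 0.943 (0.855 to 1.04). Of 18 other nutrient and stress targets, 16 were tested, led by Atf6b with 0.922 (0.844 to 1.01) and Vegfa, the gene of a vessel growth factor, with 0.894 (0.789 to 1.01).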

How the data were processed

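RNA sequencing of 2 daidzein and 2 DMSO libraries was used, grouped by title. Per the submitters' processing notes, the tools were HISAT2 (2.0.1), HTSeq (0.6.1) and DESeq2 and the build mm9, without saying which step used which. The gene positions fit GRCm38 instead: 99.4% of the 55141 genes matched to GENCODE M21 had equal starts and ends. The authors deposited raw read counts per gene together with FPKM values. All 65326 FPKM values with a read lay within 0.01 of the count scaled by the deposited exonic length and the library total. Of the symbols used, Ddit3 is on more than 1 row, and the row with more reads was taken.

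Differences were tested on counts by edgeR 4.0.16 (R 4.3.3, TMM, default filterByExpr, quasi-likelihood F test, Benjamini-Hochberg over all tested genes, threshold 0.05, no fold limit). CPM values with an SD use TMM factors. Intervals are 95%, and floors of 3 counts cover counting error only. Pairs of libraries differed by chi-square per degree of freedom of 2.23 to 4.81, so none was counted as a duplicate. Copies were sought with blastn 2.17.0 among GENCODE M21 transcripts. Promoter windows are from RefSeq. The edgeR fit was also run on simulated counts, and the outcome is not reported here. Alternatives were DESeq2 1.42.0, limma 3.58.1 on FPKM and those named in the closing section.

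Members, lists and tests were chosen with earlier results of these data known. Every member is accounted for, with full values for the 10 tested members with the smallest p and for 12 central ones. Of each other list, the 2 genes with the smallest p are named with their folds. Any further gene was picked after looking at its values.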

Additional observations from a re-analysis of the deposited data

How the results depend on the processing

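By edgeR, DESeq2 and limma, 0 members passed in each alternative tried: library totals without TMM, no filter or a stricter filter (5 CPM in 2 libraries), robust estimation, a prior count of 0.5 (folds only), a replicate block, limma trend on log2(FPKM + 1) and log2(FPKM + 0.1), and each library left out. Of 350 recomputed member values, 334 kept their direction and 16 turned, all 16 with a library left out. The smallest adjusted p was 0.406, with the replicate block. With a library left out, log2 differences ran from -0.0106 to 0.0756 for Ddit3, -0.13 to 0.0444 for Atf5, -0.0547 to 0.13 for Sesn2, -0.24 to 0.0407 for Ddit4, -0.13 to 0.0256 for Phgdh and -0.0941 to 0.0743 for Psph. They ran from -0.0591 to 0.0096 for Shmt2, -0.0379 to 0.0600 for Mthfd2, -0.14 to 0.0291 for Slc7a1, -0.0191 to 0.0740 for Slc7a5, -0.12 to 0.0146 for Slc3a2, -0.14 to 0.0579 for Slc38a2 and -0.0040 to 0.11 for Slc1a4. Leaving out 1 library put the members' median, -0.0103, between -0.0148 and 0.0165, the highest without DMSO replicate 1. Over all alternatives it ran from -0.0157, by DESeq2, to 0.0165. The replicate block left 0 members called and a median of -0.0119. Of the other pathway genes, 1 passed (Cebpb) with the replicate block (adjusted p = 0.00822), 1 without a filter on low counts, and 0 to 1 with a library left out, the 1 being without daidzein replicate 1. A fit that leaves out a library has 1 library in that group, which is assumed to vary like the pair of the other group, so this call rests on the spread of the DMSO pair alone. The cause was not tested. No label gives same-numbered libraries a shared culture. The deviations of the libraries numbered 1 from their group means had a correlation of 0.09 over 11700 genes. With 2 libraries in a group, those numbered 2 deviate by the opposite amount, so they give the same value and add nothing. The same-numbered pairs were nonetheless the most alike, with a chi-square per degree of freedom of 2.23 for the libraries numbered 2 and 3.51 for those numbered 1, against 4.38 within daidzein, 4.17 within DMSO, and 4.05 and 4.81 for the crossed pairs. A shared replicate effect is not part of the stated design, and the reason for this likeness was not tested. The 5 most abundant members were the same 5 by CPM. The exact core gave 6 members in place of 8. Depth limits Chac1, Nupr1, Slc7a3 and Gdf15, at no more than 61 reads per library.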

Other observations

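Several neighbouring routes stood out by level, and these genes were singled out after their values were seen. Pycr3, a relative of Pycr1 that also makes proline, averaged 88.3 FPKM over the 4 libraries, against 2.42 FPKM of Pycr1. Transcripts of transsulfuration, which turns homocysteine into cysteine, were at or near 0, with 0 reads of Cbs and 1 read of Cth in daidzein replicate 1 only. The cystine carrier gene Slc7a11 was low, at 1.36 FPKM. Mat2a, which makes S-adenosylmethionine, averaged 123 FPKM, and Mat1a, known from liver, had 0 reads.

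In the glycine cleavage system the subunits were uneven. Gcsh averaged 142 FPKM and Dld, which other enzyme complexes share, 61.7 FPKM, while Gldc had 4 and 1 reads with daidzein and 4 and 3 with DMSO. Of the mitochondrial dehydrogenases, Mthfd2 stood at 87.6 FPKM on average and its relative Mthfd2l at 2.43 FPKM. The aminoacyl-tRNA synthetase genes ran from 17.0 FPKM for Cars to 160 FPKM for Gars. The stress factor gene Atf3 had 7 and 1 reads with daidzein and 11 and 2 with DMSO, near 0 in both groups beside 242 FPKM of Atf4.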
